A study of Arabidopsis thaliana with 6 samples.

Results

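Expression of 7 genes of sulfate assimilation and sulfur deficiency was followed on each array of chilled *Arabidopsis* seedlings: the sulfate transporter gene *SULTR1;2*, the adenosine phosphosulfate (APS) reductase genes *APR1* and *APR3*, the low-sulfur response genes *LSU2* and *SDI2*, the beta-glucosidase gene *BGLU28* and the transcription factor gene *MYB34*. They are 7 of 13567 genes that could be tied to a probe set, among 22746 probe sets tested, and were chosen by name, with earlier results of these arrays known, from genes that were higher in *fbs1-1* than in wild type (WT). The difference between genotypes in these 7 genes is therefore given as a description, and the calls that the tests across all probe sets made for them are counts from which nothing is read. A difference is always *fbs1-1* minus WT on the log2 scale, so that a positive value means a higher level in *fbs1-1*.

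RNA of whole 12 day-old seedlings of *fbs1-1* and WT was hybridized to 6 Affymetrix ATH1 arrays, 3 per genotype and labelled as biological replicates. The question was which genes depend on *FBS1*, a stress-induced F-box protein gene, for their expression. *fbs1-1* is a single mutant line with a transposon in the first intron of *FBS1*, and by the labels both lines are of the No-0 accession. All seedlings, WT included, had been pooled within a replicate, kept on MS medium under long days (16 h light and 8 h dark), and moved to 10 °C for 7 days after 5 days at 24 °C, so that no unchilled seedlings enter the comparison. The *fbs1-1* arrays carry the numbers 45, 61 and 62 and the WT arrays the numbers 43, 59 and 60, for replicates 1, 2 and 3. The names of the WT arrays hold "Nd0" where the labels give No-0, so that loss of *FBS1* and other differences between the lines cannot be told apart in any value below. The level of *FBS1* itself (AT1G61340) was not analysed here, because the tables used name no probe set for it. The deposited values are log2 intensities after robust multi-array (RMA) normalization, with array medians of 2.62 to 2.72 and 40.2% to 40.8% of values under 2. They carry no detection calls, and precision is limited by having 3 arrays per genotype.

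Plants take up sulfate through root transporters, activate it with ATP to APS, reduce APS to sulfite and then to sulfide, and build cysteine, methionine and glutathione from it. APS reductase is a main point of control of this pathway. When sulfate is scarce, genes for uptake and reduction are induced together with a set of small response proteins, and glucosinolates, the sulfur-rich defense compounds of the cabbage family, can be broken down to release sulfur. The labels name no seedlings grown without sulfate.

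Each of the 7 genes was at a higher level on all 3 *fbs1-1* arrays than on any WT array. The differences ran between 0.89 and 1.78 on the log2 scale, with a median of 1.33 (2.52-fold), while the median over all 22746 probe sets was 0.01. Over all probe sets, 10.8% showed the same absence of overlap with *fbs1-1* higher. With limma at an adjusted p under 0.05, 4 of the 7 genes were called higher in *fbs1-1*, against 1.68% of all probe sets. Rank products, whose threshold was an estimated share of false calls under 0.05, called 7 of 7 higher, against 1.12% of all probe sets. For 5 of the 7, the probe set is known only from the study's lists of called genes. Those lists were made with rank products on these same arrays, so that these 5 calls were largely fixed in advance. In whole seedlings, a lower level through fewer cells of a type and one through less RNA per cell cannot be told apart. In the plot of values by array, every *fbs1-1* point lies above every WT point of the same gene.

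**Figure D1:**
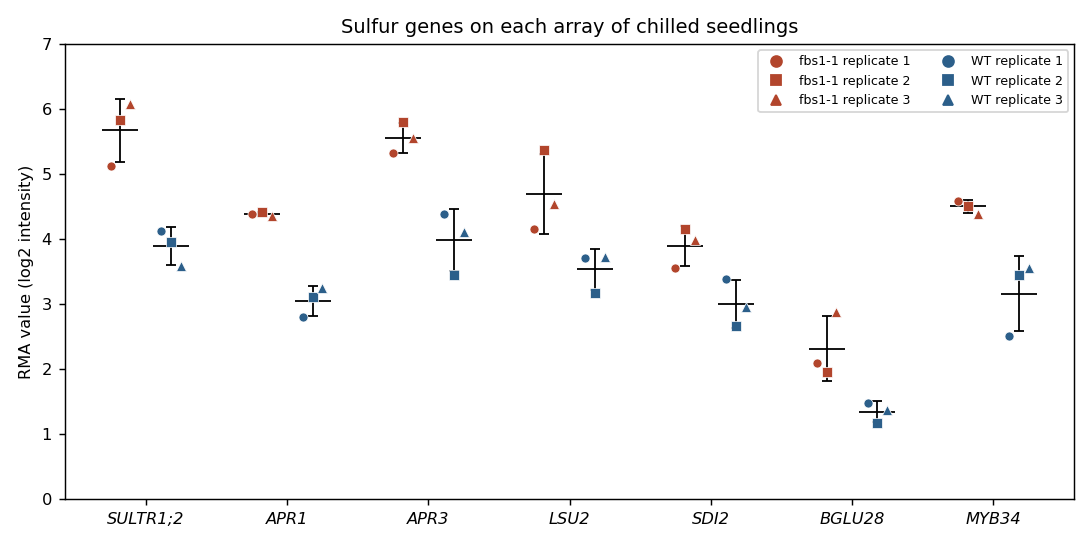
RMA values (log2 intensity, vertical axis) of the 7 genes (horizontal axis) on the 3 *fbs1-1* arrays (red, left of each pair) and the 3 WT arrays (blue, right), with marker shapes for replicates and a black bar for the mean ± SD (n = 3). The genotypes do not overlap in any of the 7 genes, and the narrowest gap is that of *SDI2*, at 0.16.

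*SULTR1;2* (AT1G78000) encodes the main high-affinity transporter for sulfate uptake by roots. Its values were 5.12, 5.83 and 6.07 in *fbs1-1* and 4.13, 3.96 and 3.58 in WT, for replicates 1 to 3. Replicate 1 was the lowest *fbs1-1* array and at the same time the highest WT array, so that the genotypes came closest in replicate 1, 0.99 apart. The means were 5.67 ± 0.49 in *fbs1-1* and 3.89 ± 0.29 in WT (SD, n = 3 each), a difference of 1.78 with a standard error of 0.24 (3.44-fold). This was the largest difference among the 7 genes and the 35th largest in favor of *fbs1-1* among all probe sets.

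*APR1* (AT4G04610) and *APR3* (AT4G21990) encode plastid enzymes that reduce APS to sulfite. *APR1* measured 4.38, 4.42 and 4.36 in *fbs1-1* and 2.80, 3.10 and 3.25 in WT. Its *fbs1-1* arrays were nearly equal (SD 0.03), the WT arrays were less so (SD 0.23), and the lowest *fbs1-1* value lay 1.11 above the highest WT value, the widest gap of the 7 genes. The difference was 1.34 with a standard error of 0.12 (2.52-fold). *APR3* measured 5.33, 5.80 and 5.56 in *fbs1-1* and 4.39, 3.45 and 4.11 in WT. Here it was the WT arrays that spread most, with replicate 2 lowest, and the genotypes stayed 0.94 apart at their closest, again between the arrays of replicate 1. The difference of *APR3* was 1.58 with a standard error of 0.23 (2.99-fold). The genes of this family have similar sequences, and the files do not show how far each probe set binds RNA of its relatives.

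*LSU2* and *SDI2* are known as genes that respond to low sulfur. *LSU2* (AT5G24660) encodes a small protein of the RESPONSE TO LOW SULFUR family. Its values were 4.16, 5.37 and 4.54 in *fbs1-1* and 3.70, 3.17 and 3.72 in WT. The *fbs1-1* arrays were far apart, with replicate 2 highest, and the lowest of them was 0.44 above the highest WT array. The means were 4.69 ± 0.62 in *fbs1-1* and 3.53 ± 0.31 in WT (SD, n = 3 each), a difference of 1.16 with a standard error of 0.29 (2.23-fold), the largest standard error of the 7. *SDI2* (AT1G04770) is a relative of *SULFUR DEFICIENCY INDUCED 1*, whose product represses aliphatic glucosinolate synthesis. *SDI2* measured 3.55, 4.15 and 3.98 in *fbs1-1* and 3.39, 2.66 and 2.96 in WT. Replicate 1 brought the genotypes within 0.16 of each other, whereas replicates 2 and 3 were 1.25 apart on average. Over all arrays its difference was 0.89 with a standard error of 0.21 (1.85-fold), the smallest of the 7.

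*BGLU28* (AT2G44460) encodes a beta-glucosidase that is induced by sulfur deficiency and is known to help break down glucosinolates. It measured 2.09, 1.96 and 2.88 in *fbs1-1* and 1.48, 1.17 and 1.37 in WT. All 3 WT arrays were under 2, where the scale is lowest, and replicate 3 stood above the other *fbs1-1* arrays. The difference was 0.97 with a standard error of 0.22, for which no fold is given because nothing in the files shows that the WT signal was above background. The other 6 genes had means of at least 2 in both genotypes.

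*MYB34* (AT5G60890), also known as *ATR1*, encodes a transcription factor that activates tryptophan and indolic glucosinolate synthesis. Its values were 4.59, 4.50 and 4.39 in *fbs1-1* and 2.51, 3.44 and 3.55 in WT. The *fbs1-1* arrays were close together, while WT replicate 1 was far below the other WT arrays. The means were 4.50 ± 0.10 in *fbs1-1* and 3.16 ± 0.57 in WT (SD, n = 3 each), a difference of 1.33 with a standard error of 0.25 (2.52-fold). The gap between genotypes was 0.84, and without WT replicate 1 the difference was 1.0.

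The genes did not vary alike within a genotype. The difference was larger between the arrays of replicates 2 and 3 (array numbers 59 to 62) than between those of replicate 1 (array numbers 43 and 45) for 5 of the 7 genes. It was 2.18 against 0.99 for *SULTR1;2*, 1.90 against 0.94 for *APR3*, 1.51 against 0.45 for *LSU2*, 1.25 against 0.16 for *SDI2* and 1.15 against 0.61 for *BGLU28*. In the other 2 genes the order was turned, with 1.22 in replicates 2 and 3 against 1.58 in replicate 1 for *APR1*, and 0.96 against 2.09 for *MYB34*. These are means of 2 arrays and single arrays per genotype, and the difference between them was not tested. The share of all probe sets with the larger difference in replicates 2 and 3 was not taken. The count of 5 of 7 is therefore not read as a trait of these genes.

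Each value was also taken as its deviation from the mean of its own genotype, which removes the difference that chose the genes. *SULTR1;2*, *APR3*, *LSU2* and *SDI2* were lowest on replicate 1 among the *fbs1-1* arrays, as were 40.8% of all probe sets. *APR3*, *LSU2*, *SDI2* and *BGLU28* were lowest on replicate 2 among the WT arrays, as were 29.8% of all probe sets. *APR3*, *LSU2* and *SDI2* showed both orders, which 10.8% of all probe sets did. Averaged over the 7 genes, the deviations were -0.26, 0.14 and 0.11 on *fbs1-1* replicates 1 to 3 and 0.06, -0.15 and 0.08 on WT replicates 1 to 3. Averaged over all probe sets they stayed between -0.02 and 0.01 on every array. RMA brings the arrays to like distributions, so that this average is small in advance. It is no measure of how far a mean over 7 genes would move, and no other sets of 7 genes were averaged.

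**Figure D2:**
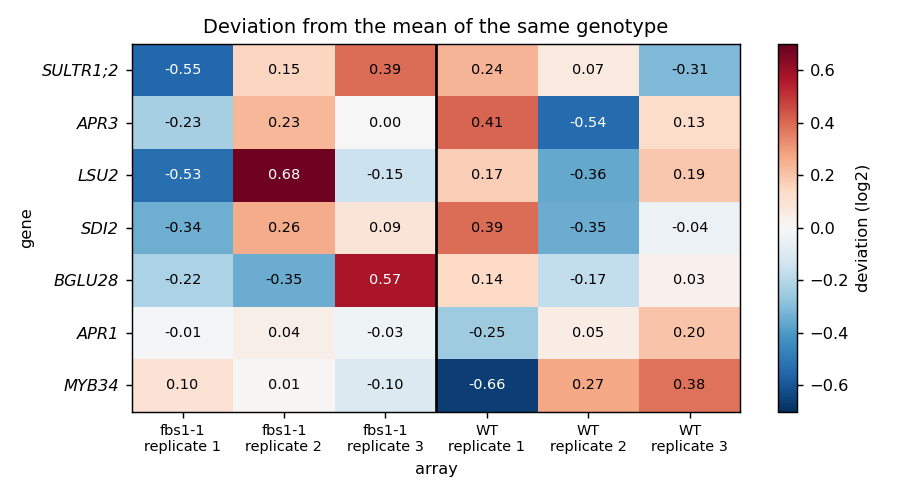
Deviation (log2, colors and printed values) of each gene (rows) on each array (columns, *fbs1-1* left and WT right of the black line) from the mean of the same genotype. *APR3* and *SDI2* share the sign of 5 of 6 deviations. So do *SULTR1;2* and *SDI2*, *APR3* and *LSU2*, *APR3* and *BGLU28*, and *APR1* and *MYB34*. In *APR1* and *MYB34*, WT replicate 1 lies below the other WT arrays. Some signs rest on very small deviations, such as -0.01 for *APR1* on *fbs1-1* replicate 1.

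The 21 pairs among the 7 genes were compared by the root mean square of the difference between their deviations over the 6 arrays, where a smaller value means more alike. *APR3* and *SDI2* were the most alike, at 0.12, and *APR1* and *MYB34* came next, at 0.21. *LSU2* lay 0.25 from *SDI2* and 0.26 from *APR3*, and *SULTR1;2* lay 0.26 from *SDI2*. The 2 APS reductase genes, which encode the same enzyme activity, were 0.38 apart, which was also the median over the 21 pairs. *MYB34* was farthest from *APR3* and *SULTR1;2*, at 0.58 each, and had the same sign as *SDI2* on 1 of 6 arrays. These 6 deviations hold only 4 independent values per gene, all genes were read from the same 6 hybridizations, and genes with small deviations lie nearer to all others, so that the distances are a description.

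Other genes of the pathway could be followed in part. Of 60 further genes of sulfate transport, sulfate activation and reduction, cysteine, glutathione, methionine and S-adenosylmethionine synthesis and the sulfur deficiency response, 8 had a probe set tied to 1 gene. These were 3 genes of activation and reduction and 5 of methionine and S-adenosylmethionine metabolism. None of the other sulfate transporter, cysteine, glutathione or sulfur deficiency genes on the list were among them. Of the 8 genes, 2 passed limma as higher in *fbs1-1*, 1 passed as lower and 5 did not pass, and the median difference was 0.26, or 0.10 over the 7 genes that the platform annotation names. Over all probe sets, limma called 1.68% higher and 1.57% lower in *fbs1-1*, 3.25% together. Among those 7, 1 was higher and 1 was lower in *fbs1-1*, while 2.80% of all loci named that way passed in either direction. Rank products called 1 of these 7, and 2.29% of all probe sets in either direction. In limma, 4 of these 7 had an unadjusted p under 0.05 in either direction. The share of all loci at that level was not taken, so that nothing is read from this count.

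Sulfite reductase, the next enzyme after APS reductase, moved the other way. *SIR* (AT5G04590) measured 7.03, 7.29 and 7.23 in *fbs1-1* and 7.66, 7.82 and 7.90 in WT. All *fbs1-1* arrays were below all WT arrays, and the difference was -0.61 with a standard error of 0.11 (adjusted p = 0.024 from limma), which is 1.52-fold higher in WT. This call was lost when any array other than WT replicate 1 was left out (highest adjusted p = 0.0965) and with rank products (estimated share of false calls 0.109). The ATP sulfurylase genes, which act before APS reductase, did not pass and are given although their values were seen first. *ATPS3* measured 4.12, 4.27 and 4.30 in *fbs1-1* and 3.37, 4.02 and 4.03 in WT (difference 0.42, adjusted p = 0.315). *ATPS4* measured 4.27, 3.75 and 3.90 in *fbs1-1* and 4.26, 4.30 and 4.16 in WT (difference -0.27, adjusted p = 0.443). *ATPS3* did not overlap between genotypes and *ATPS4* did.

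In methionine metabolism, *HMT1* (AT3G25900) encodes a homocysteine methyltransferase that makes methionine. It was 4.32, 3.89 and 4.38 in *fbs1-1* and 2.64, 3.46 and 3.24 in WT. The genotypes did not overlap, and the difference was 1.08 with a standard error of 0.22 (2.11-fold, adjusted p = 0.034 from limma). The call did not hold without WT replicate 3 or without any one of the *fbs1-1* arrays (highest adjusted p = 0.152). *SAM1* (AT1G02500), for an S-adenosylmethionine synthetase, was 8.47, 8.30 and 8.54 in *fbs1-1* and 7.28, 7.70 and 7.39 in WT. Its arrays separated by genotype, with a difference of 0.98 and a standard error of 0.13 (1.97-fold, adjusted p = 0.00628 from limma). The probe set of *SAM1* is known only from lists of called genes, so that it had to differ. The methionine gamma-lyase gene *MGL* measured 0.41 higher in *fbs1-1* (adjusted p = 0.109), and *CBL* and *MMT* each 0.10 higher (adjusted p = 0.78 and 0.686), none of which passed.

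Glucosinolate genes were considered because of *MYB34* and *BGLU28*. Of 47 listed genes, 9 had a probe set tied to 1 gene, and 3 passed limma, all higher in *fbs1-1*: *ESM1*, *IGMT5* and *GS-OX4*. Over all probe sets, limma called 1.68% higher in *fbs1-1*. The median over the 9 genes was 0.19, and over the 6 that the annotation names it was 0.00. All 3 genes that passed are named only through lists of called genes from the same arrays, so that their passing is not independent evidence. Among the 6 annotated genes, limma called 0 (lowest adjusted p = 0.247), rank products called 0, and 1 had an unadjusted p under 0.05 in limma. As the share of all loci at that unadjusted level was not taken, nothing is read from this count either.

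*ESM1* (AT3G14210), whose product favors isothiocyanates over nitriles when glucosinolates are broken down, measured 9.53, 9.79 and 9.37 in *fbs1-1* and 7.48, 7.05 and 6.71 in WT. The genotypes were at least 1.89 apart, and the difference was 2.48 with a standard error of 0.19 (5.59-fold, adjusted p = 0.000413 from limma). *IGMT5* (AT1G76790), for a methyltransferase of indolic glucosinolates, measured 6.95, 6.48 and 6.97 in *fbs1-1* and 5.83, 6.15 and 6.0 in WT. *GS-OX4* (AT1G62570), for an S-oxygenase of aliphatic glucosinolates, measured 3.69, 3.75 and 3.24 in *fbs1-1* and 2.59, 2.83 and 2.92 in WT. Neither gene overlapped between genotypes, and the differences were 0.81 for *IGMT5* (adjusted p = 0.0264 from limma) and 0.78 for *GS-OX4* (adjusted p = 0.0333). Both calls were lost when any one of 5 of the 6 arrays was left out, with adjusted p-values of up to 0.12 for *IGMT5* and 0.124 for *GS-OX4*.

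Of the remaining 6 genes, none passed. *UGT74B1* and *UGT74C1*, for glucosyltransferases of glucosinolate synthesis, differed by -0.12 and 0.29, and *BCAT4*, for an aminotransferase of methionine chain elongation, by 0.19. The beta-glucosidase gene *BGLU23*, also known as *PYK10*, differed by 0.07, and *BGLU27* and *BGLU29* differed by -0.06 and -0.11 from means under 2 in both genotypes. In the plot of differences, the genes named by the annotation lie between -0.61 and 1.08.

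**Figure D3:**
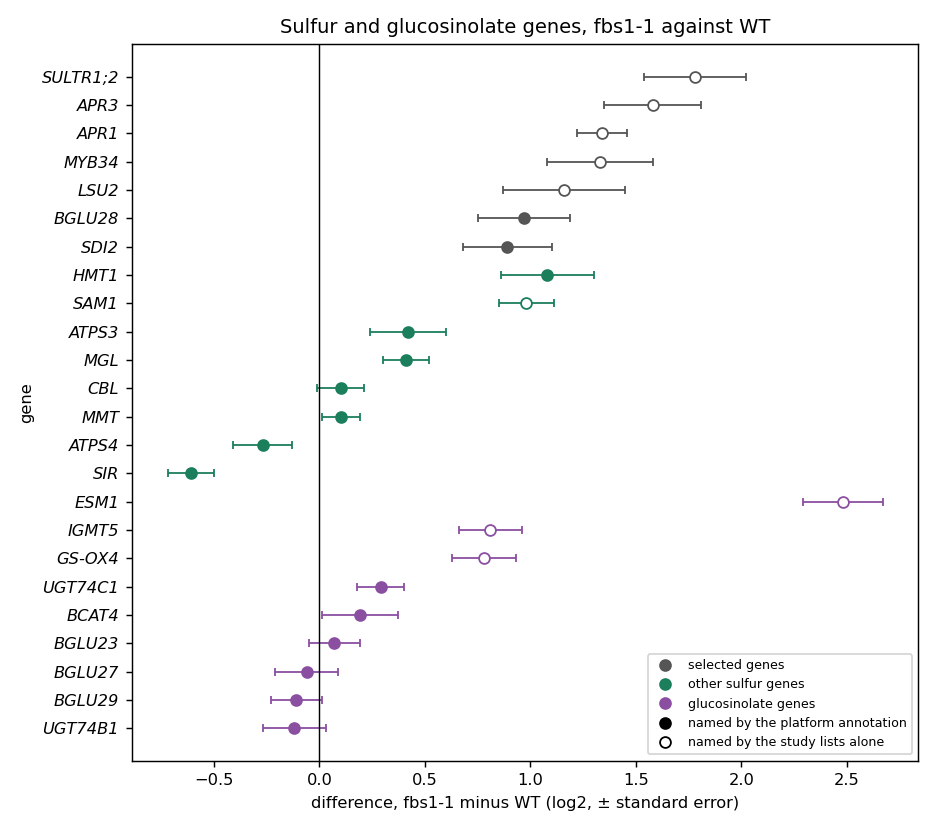
Difference *fbs1-1* minus WT (log2, horizontal axis, with its standard error from limma) for the 7 chosen genes (gray), 8 other sulfur genes (green) and 9 glucosinolate genes (purple), 1 gene per row. Filled symbols are genes named by the platform annotation and open symbols are genes named only through lists of called genes from these arrays, which could appear only if they differed. *ESM1* lies farthest right at 2.48 and *SIR* farthest left at -0.61.

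Markers of root and shoot tissue were read because *SULTR1;2* acts mainly in roots and whole seedlings hold both. Of 11 root markers 1 was measured, *EXPA7*, a gene of root hairs. It was 3.20, 3.0 and 2.91 in *fbs1-1* and 2.84, 2.85 and 2.74 in WT, a difference of 0.23 (adjusted p = 0.377 from limma). The genotypes did not overlap in *EXPA7*, although by only 0.06. Of 10 chloroplast markers 2 were measured, *RCA* and *PRK*, and they differed by 0.09 (adjusted p = 0.753) and 0.02 (adjusted p = 0.95). Whether the share of root in the samples has a part in the differences above was not tested.

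The profile of the 7 genes over the arrays was set against that of every other gene with a probe set tied to 1 locus, 13560 in all. Each profile was centred on its mean over the 6 arrays, and likeness was the root mean square of the distance in log2 units from the mean profile of the 7 genes, which had a median of 0.67 over all loci. The nearest was *SCPL7*, a serine carboxypeptidase-like gene, at 0.08. The 7 genes themselves, which were not picked by distance, lay between 0.20 for *APR1* and 0.40 for *MYB34*. *SCPL7* measured 3.26, 3.87 and 3.76 in *fbs1-1* and 2.55, 2.29 and 2.52 in WT. It was lowest on replicate 1 in *fbs1-1* and on replicate 2 in WT, as was the mean profile by which it was picked.

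The next were the sterol methyl oxidase gene AT4G22753, the phloem lectin gene *PP2-A5* and the fatty acid elongase gene *KCS8*, each at 0.11, and *ELIP1*, for an early light-induced protein, at 0.12. *GSTU27*, for a glutathione transferase, lay at 0.13, the cytochrome P450 gene AT2G12190 at 0.14, and *BGLU44*, AT3G06433 and AT1G55000 at 0.16 each. Since the profile is mainly the difference between genotypes, any gene about as much higher in *fbs1-1* lies near it, and 6 of the 10 are named only through the lists of called genes.

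**Figure D4:**
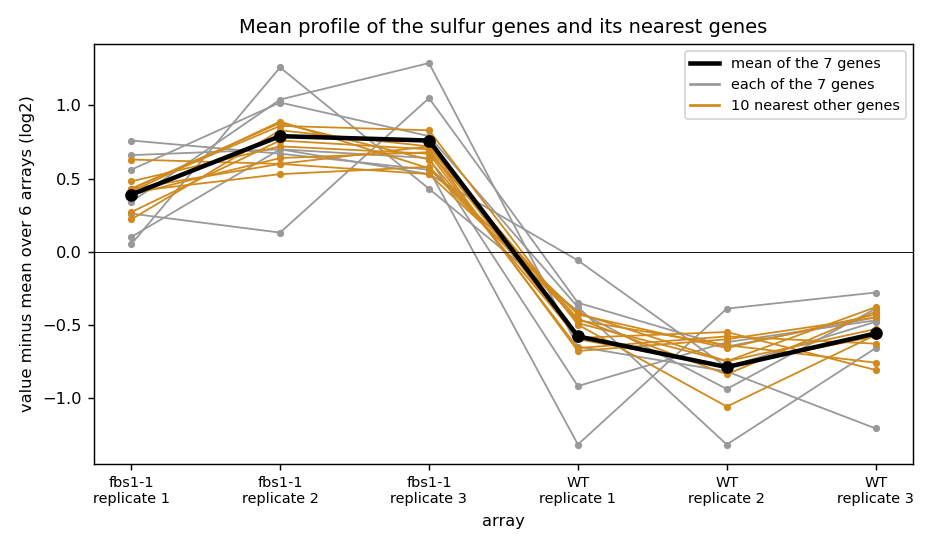
Values minus the mean over 6 arrays (log2, vertical axis) on the 3 *fbs1-1* arrays (left) and the 3 WT arrays (right) for the mean of the 7 genes (black), each of the 7 genes (gray) and the 10 nearest other genes (orange). The 10 genes were picked as the nearest and lie within 0.16 of the black line by root mean square. The gray lines were not picked by distance and lie between 0.20 and 0.40 from it.

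By gene order in the TAIR10.1 assembly, the 7 genes lie on chromosomes 1, 2, 4 and 5 and none is among the 10 nearest protein-coding neighbors of another. Of 140 neighbors, 10 on each side of each gene, 66 had a probe set named by the annotation, and 2 of these passed limma, both higher in *fbs1-1*. Of all annotated loci, 1.42% passed as higher in *fbs1-1* and 2.80% in either direction, so that 2 of 66 is close to the background. *BGLU15* (AT2G44450), a beta-glucosidase gene directly beside *BGLU28*, was one of them and is named after its values were seen. It measured 5.29, 5.28 and 5.32 in *fbs1-1* and 4.62, 4.70 and 4.66 in WT. The arrays of each genotype were nearly equal, and the difference was 0.64 with a standard error of 0.09 (1.56-fold, adjusted p = 0.00676 from limma, and at most 0.0437 with any one array left out). Rank products did not make this call (estimated share of false calls 0.0881). On the other side of *BGLU28* lies *BGLU29*, which differed by -0.11 and did not pass. The other neighbor that passed was AT1G78060, 6 genes from *SULTR1;2*, with a difference of 0.65 (adjusted p = 0.0234), and its call was lost in 4 of the 6 fits that left out an array.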

How the data were processed

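RNA of 3 *fbs1-1* and 3 WT samples was hybridized to 6 ATH1 arrays, and samples were assigned by their labels. Before deposit the authors applied RMA in R, which gave log2 intensities for each probe set. The version of RMA and the annotation used are not given in the sources used here. Without 64 control probe sets, 22746 remained and went into limma 3.58.1 in R 4.3.3 (genotype as the only term, empirical Bayes moderation, Benjamini-Hochberg adjustment over all probe sets, adjusted p under 0.05). Rank products, the test of the study's methods, were computed with numpy 2.4.6 in Python 3.11.15 over the 9 pairs of arrays with 100 permutations, because the named package was not at hand. Both were also run on simulated data with independent errors on each array, which leaves out deviations shared between arrays. The outcome of those runs is not given here.

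The platform annotation ties 13484 probe sets to 1 gene, and the study's lists of called genes, used only as a probe map, tie another 234. *SDI2* and *BGLU28* were named by the first source and the other 5 genes by the second. Where a gene had more than 1 probe set, the brightest on average was used. Members and lists were chosen with earlier results of these data known. Named in the text were the 7 genes, every listed gene that passed limma or, for a list with none, up to 3 with the largest difference, and the 10 nearest profiles. Further genes are given by their values. Alternatives covered scaling, a filter on low values, blocks, variance models and leaving out each array. The authors' fold changes and p-values were not used. No sequences were used here.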

Additional observations from a re-analysis of the deposited data

How the results depend on the processing

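The median difference of the 7 genes (1.33), whose direction the choice of genes fixes, lay between 1.21 and 1.44 when each array was left out in turn. The number of these genes that limma called ranged between 2 of 7 without *fbs1-1* replicate 3 and 5 of 7, against 4 of 7 with all arrays. For the other sulfur genes, 3 calls became 1 to 3 when an array was left out, with 1 call without WT replicate 3 or without any one of the *fbs1-1* replicates. For the glucosinolate genes, 3 calls became 1 on arrays 59 to 62 alone and 1 to 2 when an array was left out, with 1 call without any WT replicate or without *fbs1-1* replicate 1. *SAM1* and *ESM1*, which could be named only because they had been called on these arrays, passed under all 15 alternatives. *HMT1*, *IGMT5* and *GS-OX4* lost their calls on arrays 59 to 62 alone (adjusted p = 0.0835, 0.118 and 0.138), a fit with fewer arrays. No direction was reversed. Deviations of same-numbered *fbs1-1* and WT arrays correlated at r = 0.28, 0.09 and 0.14 for replicates 1, 2 and 3. For replicates 2 and 3 the values do not settle whether arrays pair by number. *fbs1-1* replicate 2 correlated at r = 0.09 with WT replicate 2 and at 0.14 with WT replicate 3. For *fbs1-1* replicate 3 these values were 0.11 and 0.14. The arrays of replicate 1 (43 and 45) correlated with each other at 0.28 and with those of other numbers at -0.23 to -0.16. They thus stood apart together from arrays 59 to 62. Deviations cancel within a genotype, so that the negative values follow in part from the positive one. With the replicate number as a block, which cannot move the median difference of 1.33 in this balanced design, limma called 5 of the 7 genes, and the counts for the other sulfur and the glucosinolate genes were 3 each. Scaling the arrays otherwise, which was added after seeing the data, left *fbs1-1* replicate 1 the lowest array for the same number of the 7 genes, 4. The low values of *BGLU28*, *BGLU27* and *BGLU29* and the lack of detection calls limit what can be said of them.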

Other observations

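Further sulfur-related families were picked out by their names in the annotation, after the values had been seen. Of 5 methionine sulfoxide reductase genes, whose enzymes repair oxidized methionine, 1 passed limma, while 1.42% of all annotated loci passed as higher in *fbs1-1* and 2.80% in either direction. This was *MSRB5*, which measured 5.90, 6.01 and 6.37 in *fbs1-1* and 4.19, 4.99 and 5.38 in WT, a difference of 1.24 (adjusted p = 0.0492) that passed in 2 of the 6 fits without 1 array. The genotypes did not overlap, and the median over the 5 genes was 0.11. Rank products called *MSRB5* and *MSRB9* higher (estimated share of false calls 0.00438 and 0.047) and no other of these genes. Over all probe sets they called 1.12% higher. *MSRB9* differed by 0.87 and did not pass limma (adjusted p = 0.213).

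Of 15 genes for glutathione transferases and reductases, 1 was higher and 1 was lower in *fbs1-1*, with a median of 0.11, against the same 2.80% of annotated loci called in either direction. *GSTU27* measured 6.76, 6.73 and 6.85 in *fbs1-1* and 5.53, 5.35 and 5.55 in WT (difference 1.30, adjusted p = 0.000375 from limma), and passed without any one array. *GSTU16* measured 2.81, 2.87 and 2.96 in *fbs1-1* and 4.32, 3.67 and 4.47 in WT (difference -1.27, adjusted p = 0.0106), and passed in 4 of the 6 fits without 1 array. The genotypes overlapped in neither gene. Of 6 sulfotransferase, sulfurtransferase and cysteine desulfurase genes, limma called 0, and their differences lay between -0.14 and 0.11. Of 2 glucosinolate transporter genes it also called 0, at 0.09 and 0.37.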
